A study of Rattus norvegicus with 15 samples.

Results

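Messenger RNA of 10 receptor genes was followed in rat liver after fipronil, an insecticide of the phenylpyrazole class whose target is the GABA-gated chloride channel of insects. The genes were Nr1i2, Nr1i3, Rxra, Ppara, Nr1h3, Nr1h4, Nr0b2, Hnf4a, Ahr and Esr1. Every non-control probe whose gene name, by current symbol or older alias, names one of them was taken, which gave 12 of the 41012 non-control probes on the array, or 10 of the 16298 genes to which probes could be matched by name. Nr1i3 and Hnf4a each had a pair of probes and the other genes 1 each. Female Wistar rats of the Crl:WI stock, 2 to 3 months old, were dosed by feeding needle every day for 14 days. The treated group of 8 rats received 3 mg/kg per day of fipronil in suspension. The control group of 7 rats received the vehicle alone, a solution of 0.5% methylcellulose and 0.01% Tween 80 in water. Liver RNA of each rat was labelled with Cy3 and hybridised to its own one-colour Agilent array, and the arrays lay on 4 slides that each held rats of both groups.

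Most of these genes encode nuclear receptors, transcription factors that bind small lipophilic ligands and switch target genes on or off, often as dimers with the retinoid X receptor. In liver they sense drugs, bile acids, oxysterols and fatty acids and set the level of the enzymes and transporters that handle them. Their activity is governed largely by ligand binding, cofactor exchange and, for some, movement into the nucleus, so that the amount of receptor mRNA is only part of their control. Ahr is the exception in the set: its product is a ligand-activated factor of the bHLH-PAS family.

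None of the 11 receptor probes that could be tested differed between fipronil and vehicle at a Benjamini-Hochberg adjusted p under 0.05. Over all 23258 probes tested, 0.821% passed (191 probes), of which the higher made up 0.533% and the lower 0.288%. The adjusted p of the 11 probes ran from 0.143 to 0.984. At an unadjusted p under 0.05 there were 3 receptor probes, those of Nr1h4, Ppara and Esr1, against 17.2% of all probes tested. In each of the 11 the groups overlapped, whereas 0.598% of all probes tested had groups with no overlap. The log2 difference was above 0 in 7 probes and below 0 in 4. Its median was 0.01, beside -0.02 over all probes tested, and the median of its size without sign was 0.06, beside 0.13. Signal below means log2 intensity after subtracting, array by array, the log2 of that array's 75th percentile. Levels of different probes are not compared, since each probe has its own binding strength.

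The brightness of an array, which bears on how well dim probes are read, was higher on average with fipronil. The 75th percentile averaged 209.9 ± 25.8 intensity units over the 8 fipronil arrays (SD) and 171.5 ± 33.3 over the 7 vehicle arrays (SD), where 57.0 ± 1.25% and 54.9 ± 2.17% of probes were well above background. The lowest correlation between any pair of the 15 arrays was 0.966. Hepatocyte markers had 10 tested probes, of which none passed and 6 had an unadjusted p under 0.05, with a median log2 difference of -0.30. Of these, 5 probes, those of Alb and Ttr among them, were saturated on every array and read between -0.32 and -0.30. In all, 7 of the 10 hepatocyte probes were saturated on some or all arrays. A saturated probe does not report its level, so the differences of these probes were not read as expression. The median over the few hepatocyte probes saturated on no array was -0.14. Sinusoidal endothelial markers had 8 probes, of which none passed and 4 had an unadjusted p under 0.05, with a median of 0.38. These probes covered 6 genes. The linear signal relative to the 75th percentile was summed over the brightest tested probe per gene, so bright probes weigh most. This sum ran from 88.6 to 172.4 with fipronil and from 71.2 to 99.9 with vehicle. The other marker lists had no probe past the threshold, with medians of 0.17 for Kupffer cells and macrophages (11 probes), -0.03 for stellate cells and fibroblasts (10), -0.08 for cholangiocytes (5) and 0.12 for T, B and NK cells (2). In whole liver RNA, a change in the share of a cell type cannot be told apart from a change in RNA per cell. The part of these markers in the receptor values was not tested.

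**Figure D1:**
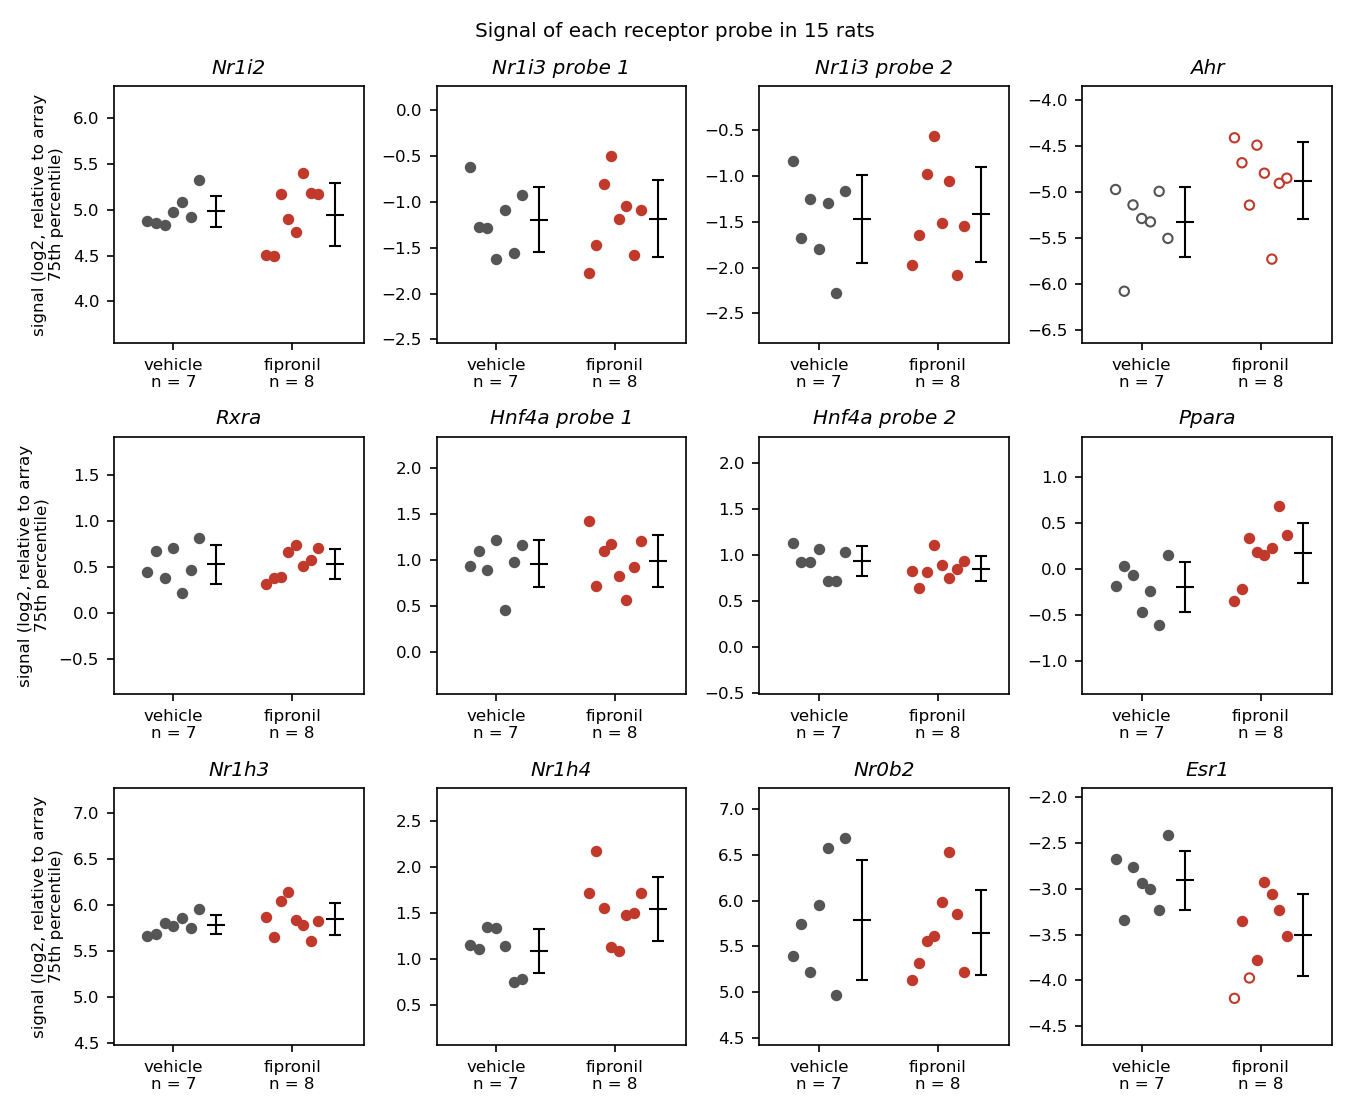
Signal of each of the 12 receptor probes (vertical axis, log2 relative to the array's 75th percentile) in every rat, vehicle in grey (n = 7) and fipronil in red (n = 8). Open circles are arrays where the probe was not well above background, bars are mean ± SD, and every panel spans the same height; the groups overlap in each panel, and all Ahr points are open.

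The xenobiotic sensors come first. Nr1i2 encodes the pregnane X receptor (PXR), which binds many drugs and steroids and drives Cyp3a genes. Its probe, at chr11:64276060-64276119 of build rn4, was well above background in every rat. With fipronil its signal was lowest at 4.49, had a median of 5.03 and reached 5.40, and with vehicle it ran from 4.83 through a median of 4.92 to 5.33. Fipronil rats 1 and 2 lay below all others, and 4 of the 8 treated rats stood above the vehicle mean. The fitted fold was 0.977, with a 95% interval of 0.797 to 1.20, and the log2 difference was -0.03 (SE 0.14, adjusted p = 0.934).

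Nr1i3 encodes the constitutive androstane receptor (CAR), which is held in the cytoplasm until activators such as phenobarbital release it and which drives Cyp2b genes. Its probes overlap on the transcript: probe 1 spans chr13:87107041-87107191 and probe 2 chr13:87107161-87107220. With probe 1, fipronil rats ran from -1.78 through a median of -1.14 to -0.50 and vehicle rats from -1.62 through -1.27 to -0.62. The fold was 1.01, interval 0.766 to 1.33 (adjusted p = 0.984). With probe 2, fipronil rats ran from -2.08 through -1.53 to -0.57 and vehicle rats from -2.28 through -1.30 to -0.84, and the fold was 1.04, interval 0.732 to 1.47 (adjusted p = 0.943). The probes gave nearly the same order of rats, with fipronil rat 4 highest in both. Probe 1 differed by -0.67 between the groups on slide 1 and by 0.80 on slide 2, and its pooled difference moved from -0.27 without slide 2 to 0.26 without slide 1, so its direction depends on which slide is left out.

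Ahr encodes the aryl hydrocarbon receptor, which binds dioxins and planar hydrocarbons and drives Cyp1 genes. Its only probe, at chr6:54203014-54203073, was well above background on 0 of 15 arrays. It was therefore not tested and has no fold. Its background-level values lay between -5.73 and -4.41 with fipronil and between -6.08 and -4.97 with vehicle.

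Rxra encodes retinoid X receptor alpha, the dimer partner of PXR, CAR, PPARalpha, the liver X receptors and the farnesoid X receptor. Its signal ran from 0.32 through a median of 0.54 to 0.74 with fipronil and from 0.22 through 0.47 to 0.81 with vehicle, so that the fipronil range lay inside the vehicle range. The fold was 1.00, interval 0.866 to 1.17 (log2 difference 0.01, SE 0.10, adjusted p = 0.984).

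Hnf4a encodes hepatocyte nuclear factor 4 alpha, a factor that maintains the hepatocyte programme and binds as a homodimer. Probe 1, printed at 10 spots per array and lying at chr3:154482699-154482758, ran from 0.57 through a median of 1.01 to 1.43 with fipronil and from 0.45 through 0.97 to 1.22 with vehicle. Its fold was 1.02, interval 0.837 to 1.25 (adjusted p = 0.939). Probe 2, at chr3:154464030-154464089, ran from 0.65 through 0.84 to 1.11 with fipronil and from 0.72 through 0.93 to 1.13 with vehicle. Its fold was 0.947, interval 0.833 to 1.08 (adjusted p = 0.697). Neither probe separated the groups, and 4 and 2 of the 8 treated rats, respectively, stood above the vehicle mean.

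The lipid and bile acid sensors held the probes with the smallest p among those measured higher with fipronil. Nr1h4 encodes the farnesoid X receptor (FXR), which binds bile acids. Fipronil rats 1 to 8 read 1.72, 2.17, 1.55, 1.13, 1.08, 1.47, 1.50 and 1.72. Vehicle rats 1 to 7 read 1.15, 1.11, 1.35, 1.33, 1.14, 0.75 and 0.78. There were 6 treated rats above the highest vehicle rat, while fipronil rats 4 and 5 lay within the vehicle range. The fold was 1.37, interval 1.10 to 1.71 (log2 difference 0.46, SE 0.15, unadjusted p = 0.00777, adjusted p = 0.152), which did not pass. The difference was 0.82 and 0.84 on slides 1 and 4, but 0.00 and 0.14 on slides 2 and 3. With array brightness as a covariate it was 0.18 (adjusted p = 0.798).

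Ppara encodes PPARalpha, the fatty acid receptor that drives peroxisomal and mitochondrial fatty acid oxidation. Fipronil rats 1 to 8 read -0.35, -0.22, 0.34, 0.19, 0.16, 0.23, 0.69 and 0.38. Vehicle rats 1 to 7 read -0.18, 0.04, -0.06, -0.46, -0.24, -0.61 and 0.15. The 6 treated rats of slides 2 to 4 lay above every vehicle rat, and the 2 of slide 1 lay below both vehicle rats of that slide. The fold was 1.29, interval 1.04 to 1.61 (log2 difference 0.37, SE 0.15, unadjusted p = 0.0246, adjusted p = 0.225), which did not pass. By slide the difference was -0.21, 0.53, 0.43 and 0.76 on slides 1 to 4, and it was 0.57 without slide 1 and 0.24 without slide 4 (unadjusted p = 0.119). Its probe lies at chr7:123807016-123807075 and that of Nr1h4 at chr7:26235407-26235466.

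Nr1h3 encodes liver X receptor alpha (LXRalpha), which binds oxysterols and drives sterol export genes. Its signal ran from 5.61 through a median of 5.83 to 6.14 with fipronil and from 5.66 through 5.78 to 5.95 with vehicle. The vehicle range lay inside the fipronil range. The fold was 1.04, interval 0.920 to 1.19 (adjusted p = 0.762).

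Nr0b2 encodes the small heterodimer partner (SHP), a receptor without a DNA-binding domain that FXR induces and that represses bile acid synthesis. Fipronil rats ran from 5.13 through a median of 5.58 to 6.53 and vehicle rats from 4.98 through 5.75 to 6.68. The fipronil range lay inside the vehicle range. The fold was 0.906, interval 0.615 to 1.34 (log2 difference -0.14, SE 0.26, adjusted p = 0.834).

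Esr1 encodes estrogen receptor alpha, which mediates estrogen effects on hepatic lipid and hormone-binding proteins. It was dim: the probe, at chr1:35660062-35660121, was well above background in 6 of 8 fipronil rats and 7 of 7 vehicle rats. Fipronil rats 1 to 8 read -4.19, -3.36, -3.97, -3.77, -2.93, -3.05, -3.23 and -3.52, with rats 1 and 3 not well above background. Vehicle rats 1 to 7 read -2.68, -3.34, -2.77, -2.94, -3.01, -3.23 and -2.41. All 8 treated rats lay below the vehicle mean and 5 lay below the lowest vehicle rat. The log2 difference was -0.59 (SE 0.19, unadjusted p = 0.00653), or 1.51-fold lower with an interval of 1.14 to 1.99, and did not pass (adjusted p = 0.143). By slide it was -0.77, -1.02, 0.02 and -0.55. The size depended on the processing: it was -0.17 in the authors' deposited value table and -0.10 with normexp and quantile normalization, both of which differ in background and in scaling.

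**Figure D2:**
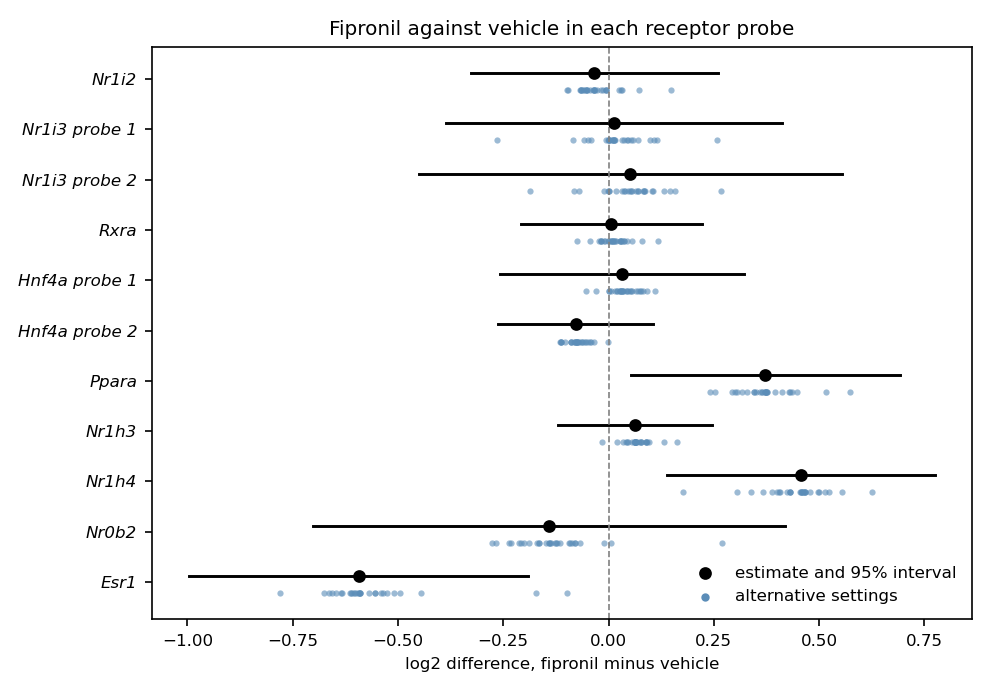
Log2 difference between fipronil and vehicle (horizontal axis) for the 11 tested receptor probes; black points and lines are the estimate and its 95% interval, and blue points are the same difference under each alternative setting. The intervals of Nr1h4, Ppara and Esr1 leave out 0, the other 8 include it, and the blue points of Esr1 reach from -0.78 to -0.10.

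**Figure D3:**
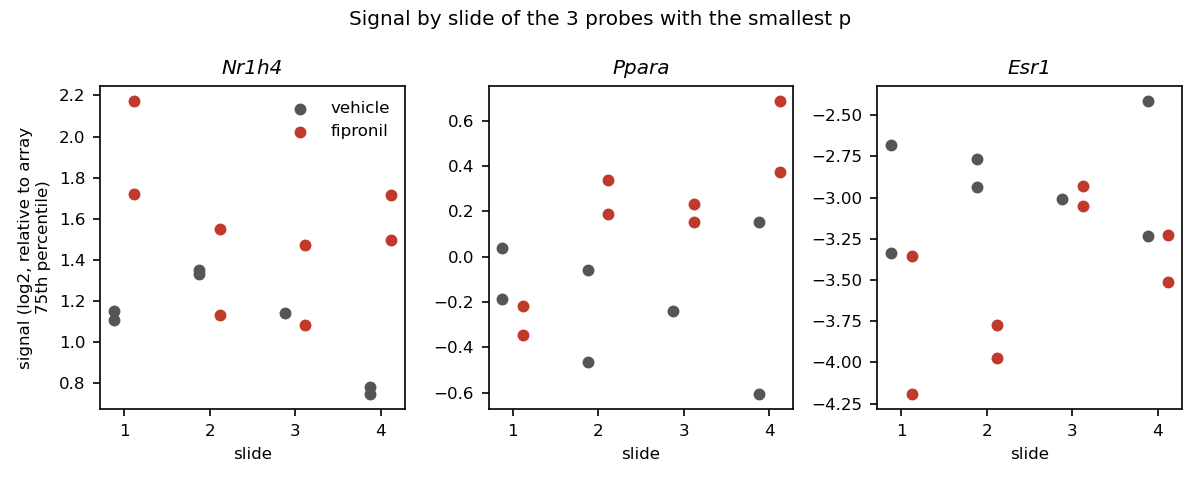
Signal (vertical axis, log2 relative to the array's 75th percentile) of the Nr1h4, Ppara and Esr1 probes in each rat against the slide of its array (1 to 4), vehicle in grey and fipronil in red. The groups do not overlap for Nr1h4 on slides 1 and 4, for Ppara on all 4 slides, with fipronil lower on slide 1 and higher on slides 2 to 4, and for Esr1 on slides 1 and 2. Each slide held only 2 fipronil rats and 2 vehicle rats, or 1 vehicle rat on slide 3. Groups this small can easily fail to overlap, and the share over all probes tested was not counted.

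How far rats of a group differed from each other varied among the receptors. The within-group SD was largest for Nr0b2, 0.56, which was above that of 92.3% of all probes tested. It was 0.39 and 0.50 for the Nr1i3 probes, 0.39 for Esr1, 0.30 for both Ppara and Nr1h4, 0.28 for Nr1i2 and 0.27 for Hnf4a probe 1. It was smallest for Nr1h3 and Hnf4a probe 2, both 0.15, followed by Rxra with 0.19. For 3 probes printed at 10 spots per array the error between spots could be read, which leaves out differences in labelling and hybridisation between arrays. The median SE of an array's mean was 0.018 for Hnf4a probe 1, 0.024 for Ppara and 0.083 for Esr1.

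Across the 15 rats, with group means removed, 55 pairs of receptor probes were correlated, a step added after the data were seen. Only the overlapping Nr1i3 probes passed (Pearson's r = 0.93, Spearman's rho = 0.93, permutation p adjusted over the 55 pairs = 0.00055; r = 0.90 without the 2 rats farthest from the median). The next pairs were Nr1i2 with Ppara, r = 0.68 and rho = 0.58, and Nr1i2 with Nr0b2, r = 0.60 and rho = 0.56, both with an adjusted permutation p of 0.181. The pair of Hnf4a probes, which lie apart on the gene, had r = 0.57 and rho = 0.52 (adjusted permutation p = 0.342).

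**Figure D4:**
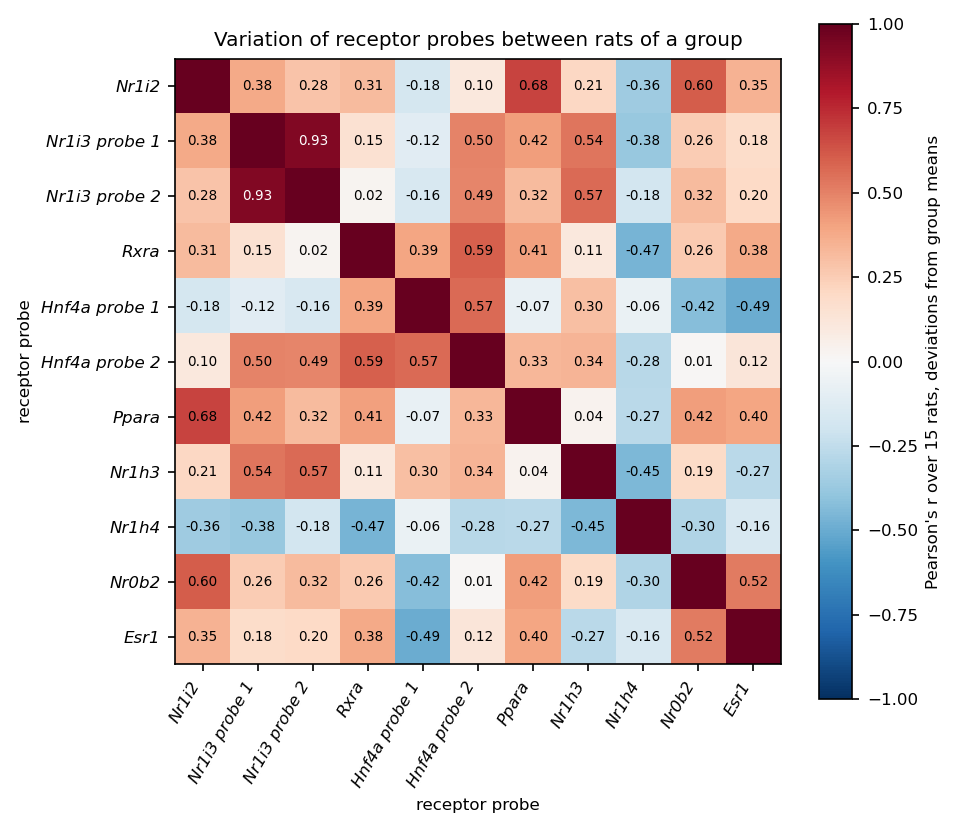
Pearson's r between each pair of the 11 tested receptor probes over 15 rats, computed on deviations from the group means; red is positive and blue negative. The Nr1i3 probes stand out with 0.93. Nr1h4 has values below 0 with every other probe, but none of these pairs passed. With array brightness removed, r of Nr1h4 went from -0.30 to 0.16 with Nr0b2 and from -0.06 to 0.03 with Hnf4a probe 1. It stayed below 0 with the other probes, but was near 0 with Nr1i2 (from -0.36 to -0.003) and Ppara (from -0.27 to -0.02). It also shrank with Rxra (from -0.47 to -0.23) and Nr1h3 (from -0.45 to -0.14). With Hnf4a probe 2 it grew in size, from -0.28 to -0.35.

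The probes of other named genes whose deviations followed each receptor most closely, over the same 15 rats, were as follows, as a description. Nr1i2 was followed by Itpka (r = 0.91), Tulp3 (0.89) and Slc25a22 (0.87). Nr1i3 probe 1 was followed by Ece1 (r = 0.79), Eya2 (0.75) and Cacna1h (0.75), and Rxra by Zzef1 (0.89), Epha2 (0.86) and Zc3h12a (0.83). Hnf4a probe 1 went with Gps2 (r = 0.86), Porcn (0.86) and Smg9 (0.84), and Ppara with Glyatl2 (0.84), Slc25a47 (0.83) and Map1lc3b (0.81). Nr1h3 went with H2ac25 (r = 0.88), Use1 (0.88) and Gab2 (0.87), and Nr1h4 with Smu1 (0.90), Setsip (0.88) and Rig1 (0.85). Nr0b2 went with Ptk2 (r = 0.92), B2m (0.83) and C3h9orf50 (0.83), and Esr1 with Fzd1 (0.83), Chordc1 (0.76) and Trim36 (0.76). Both probes of a pair were read from the same arrays, and rats shared slides. Each list is the top of all tested probes.

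Partners and cofactors of the receptors had 56 tested probes of 32 genes, with 1 probe lower and none higher, and a median log2 difference of -0.01. The list's 1 call was lost in 16 of the 29 alternatives, among them slide as a block and every omission of a slide. Prmt1, an arginine methyltransferase of the list, had a log2 difference of -0.21 (adjusted p = 0.184) and did not pass. Other nuclear receptors had 26 tested probes of 24 genes, none past the threshold, with a median of -0.06. Those with the smallest p were Esrrb, an estrogen-related receptor (-0.36, adjusted p = 0.110), and Nr1d1, the clock repressor REV-ERBalpha (-0.34, adjusted p = 0.198).

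The targets of the receptors were set beside them. Their lists were chosen with earlier results of these data known, so the counts per list are a description. PXR and CAR targets had 26 tested probes, of which 10, of 10 genes, were higher and none lower (median 1.01). Cyp3a23-3a1, a steroid and drug hydroxylase, rose 16.9-fold (log2 difference 4.08, SE 0.23), Slco1a4, an organic anion uptake transporter, 5.77-fold, Ugt1a1, a bilirubin glucuronosyltransferase, 4.75-fold, and a Cyp2b1 probe 3.47-fold (adjusted p = 0.0093). A second Cyp2b1 probe disagreed, at 1.04-fold (adjusted p = 0.962). The others that rose were Gadd45b (5.54-fold), Cyp3a18 (3.91), Aldh1a1 (2.35), Ephx1 (2.15), Abcb1b (2.10) and Cyp3a62 (2.01). PPARalpha targets had 30 probes, of which 2 were lower and none higher (median -0.22), the fatty acid hydroxylases Cyp4a8 (log2 difference -0.81, adjusted p = 0.0435) and Cyp4a3 (-0.72, adjusted p = 0.0448). No lower target call was left in 15 of the 29 alternatives, among them array brightness as a covariate, no filter, omission of slide 1, 3 or 4, and 10 of the 15 single-rat omissions (fipronil rats 2, 3, 7 and 8 and vehicle rats 1, 2, 4, 5, 6 and 7). LXR targets had 20 probes, of which 2 were higher (median 0.06), the sterol exporters Abcg5 (12.4-fold) and Abcg8. No fold is given for Abcg8, which was well above background in 8 of 8 fipronil rats but only 2 of 7 vehicle rats and so entered the test through the fipronil group. FXR and SHP targets had 21 probes, of which 2 were higher, both of Insig2, a regulator of sterol sensing (log2 differences 0.96 and 0.80, adjusted p = 0.0077 and 0.0091), and the list's median was -0.01, or 0.10 over its probes that were saturated on no array.

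The remaining target lists had no probe past the threshold. HNF4alpha targets had 27 probes (median -0.09). Of these, 8 were saturated on every array and read between -0.32 and -0.26, and the median over probes saturated on no array was -0.03. Its smallest p values were those of coagulation factor F7 (-0.54, adjusted p = 0.139) and Apoa4 (-0.43, adjusted p = 0.178), the latter saturated in 7 fipronil rats and all 7 vehicle rats. AHR targets had 10 probes (median -0.01). Of these, a Gsta2 probe read 0.76 higher (adjusted p = 0.0959) while a second, saturated on 8 fipronil and 6 vehicle arrays, read -0.24, and Aldh3a1 read -0.23 (adjusted p = 0.227). Estrogen receptor alpha targets had 11 probes (median 0.00), led by Igfbp4 (-0.31, adjusted p = 0.188) and the prolactin receptor gene Prlr (-0.69, adjusted p = 0.252).

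**Figure D5:**
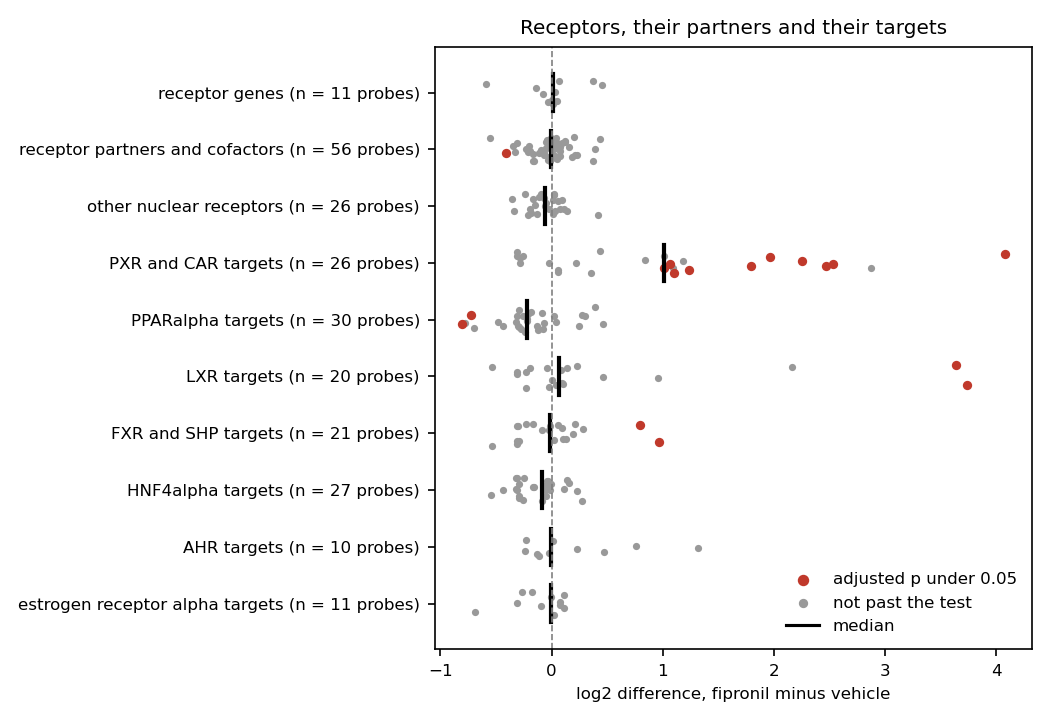
Log2 difference between fipronil and vehicle (horizontal axis) for tested probes of the receptor genes, their partners, other nuclear receptors and the target lists; red points passed an adjusted p of 0.05 and black bars are medians. The receptor row spans -0.59 to 0.46 with no red point, while the PXR and CAR target row reaches 4.08 with 10 red points. The lists were chosen with earlier results of these data known.

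Whether a rat with more receptor mRNA also had more target mRNA was examined within each group, in 10 relations over 5 receptor and target pairs. None passed, and the adjusted exact permutation p was 0.863 for all 10. For Nr1i2 with Cyp3a23-3a1, r was 0.63 and rho 0.64 in the fipronil rats (n = 8, exact permutation p = 0.0991 and 0.0962), and r was 0.10 and rho -0.32 in the vehicle rats (n = 7, exact permutation p = 0.863 and 0.498). Without the 2 rats farthest from the median Nr1i2 signal, r was 0.81 in fipronil rats (n = 6) and -0.46 in vehicle rats (n = 5). With normexp and quantile normalization of all rats, r was 0.42 and rho 0.28 in fipronil rats, and 0.04 and -0.21 in vehicle rats. Where a gene had several probes the brightest tested one was used, which for Cyp2b1 is the one that did not pass. For Nr1i3 with Cyp2b1, r was 0.47 and rho 0.52 in fipronil rats, and 0.31 and 0.29 in vehicle rats. For this pair r without 2 rats was 0.79 in fipronil rats (n = 6, adjusted exact permutation p = 0.354) and 0.20 in vehicle rats (n = 5). For Nr0b2 with Cyp7a1, r was -0.31 and rho -0.52 in fipronil rats, and 0.11 and 0.07 in vehicle rats, where r without 2 rats was -0.12. For Nr1h3 with Abcg5, r was 0.34 and rho 0.29 in fipronil rats, and r was -0.14 but rho 0.07 in vehicle rats, where r without 2 rats was 0.42. For Ppara with Cyp4a1, r was 0.21 but rho -0.12 in fipronil rats, where r without 2 rats was -0.37, and r was -0.11 and rho -0.14 in vehicle rats. Ahr has no tested probe, so it was not set against Cyp1a2.

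Sequences just upstream of the receptor genes were read from RefSeq, assembly GRCr8, over 250 bases before each start. There were 10 entries, of 9 of the genes, with a pair of starts for Hnf4a; Nr1h4 was not among them. Both strands were searched for AGGTCA, the core that nuclear receptors bind, for its variant AGTTCA, found in sites of PXR and CAR, and for GTTAAT, the core that HNF1 factors bind. AGGTCA was in 0 of the 10 entries (14.1% of all 33469 entries), AGTTCA in 2 (12.2%) and GTTAAT in 1 (6.45%). The 3 entries with a match are shown because they hold a motif, which is in capitals, and the match says nothing of binding. In Nr1i2 it begins 136 bases before the start, in Nr1h3 250, and at the downstream start of Hnf4a 90 and 83 bases before it, there on the opposite strand. They lie at chr11:75965467-75965716 (plus strand), chr3:97623230-97623479 (minus strand) and chr3:172641586-172641835 (plus strand).
Nr1i2: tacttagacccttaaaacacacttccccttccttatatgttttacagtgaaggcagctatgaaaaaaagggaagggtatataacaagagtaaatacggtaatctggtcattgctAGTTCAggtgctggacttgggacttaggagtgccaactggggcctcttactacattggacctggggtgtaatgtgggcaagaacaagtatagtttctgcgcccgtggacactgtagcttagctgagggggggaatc
Nr1h3: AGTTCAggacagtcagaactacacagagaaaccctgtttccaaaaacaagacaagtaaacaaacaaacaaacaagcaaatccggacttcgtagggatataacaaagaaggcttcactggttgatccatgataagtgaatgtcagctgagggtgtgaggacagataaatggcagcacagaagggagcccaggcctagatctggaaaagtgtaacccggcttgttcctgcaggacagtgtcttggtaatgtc
Hnf4a: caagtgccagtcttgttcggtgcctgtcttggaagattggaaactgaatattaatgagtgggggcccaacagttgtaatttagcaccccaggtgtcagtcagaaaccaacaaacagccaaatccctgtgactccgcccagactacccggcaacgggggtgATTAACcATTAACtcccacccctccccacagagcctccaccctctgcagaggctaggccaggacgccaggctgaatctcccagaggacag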

How the data were processed

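Spot intensity values in the deposited array files came from Agilent Feature Extraction 9.5.3.1, per the file headers, which also name build rn4. Probe positions were listed with the spots. Per the file headers, the processed intensity had its background subtracted and was detrended, with no normalization across arrays. The deposited 0 or 1 flags mark outlier, saturated and above-background spots. The deposited log2 value table was read, from its values, as quantile-normalized median intensity.

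Outlier spots were dropped, spots of a probe averaged, and log2 processed intensity taken relative to the array's 75th percentile. Probes well above background on at least 7 arrays, with values on at least 12, were tested with limma 3.58.1 (group only, two-sided, Benjamini-Hochberg) in R 4.3.3, after a check on simulated data. Gene symbols follow RefSeq GRCr8. No genome of build rn4 was used here, so exons under probes are not given.

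The receptors and gene lists were chosen with earlier results of these data known. Every receptor probe is named, and of each list the genes past the threshold or the 2 with the smallest p. The values of 1 gene of the partner list are not reported here. The labels give each rat its own number. As each rat had a single array, p-values rest on the spread between these rats together with differences in labelling, hybridisation and slide. Replicate numbers were not taken to pair rats: deviations of same-numbered rats correlated between -0.04 and 0.37.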

Additional observations from a re-analysis of the deposited data

Results flagged for a closer look

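Of the 24 sets of values examined (12 receptor probes in each group), 1 held a rat far from the rest, and chance flags about 1 in 20. It was Hnf4a probe 1 in vehicle rat 5, at 0.45, with the next rat at 0.89 and a gap of 0.570 of the group's range. The probe's difference was -0.05 without that rat, against 0.03 with it.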

How the results depend on the processing

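No receptor probe passed in any of the alternatives tried (29, or 28 for Nr1i3 probe 2 and Hnf4a probe 2). Nr1h4 and Ppara stayed above 0 (0.18 to 0.62 and 0.24 to 0.57) and Esr1 below it (-0.78 to -0.10); Hnf4a probe 2 also kept its sign. Signs changed in 5 alternatives for Nr1i2, 8 and 5 for the Nr1i3 probes, 9 for Rxra, 2 for Hnf4a probe 1, 1 for Nr1h3 and 2 for Nr0b2, which reached 0.27 with array brightness as a covariate. The count over all probes, 191, became 90 with no filter, 318 with slide as a random block, 42 with brightness, 97 with the replicate block (which also takes nothing from fipronil rat 8, whose number no vehicle rat shares), 37 without slide 1 and 45 without slide 4; leaving out each rat gave 102 (without fipronil rat 8) to 307 (without vehicle rat 3). The replicate block changed no receptor call, and 3 of 7 fipronil rats correlated best with their own number. The partner list fell from 1 to 0 with no filter, slide as a block, brightness, the replicate block and without slides 1, 2, 3 or 4, and leaving out each rat gave 0 to 1. The target lists, 16 probes in all, gave 8 with brightness, 8 without slide 1 and 9 without slide 4, all of them higher and none lower. The cause was not tested. Array number limits precision, and the Ahr probe has only background signal. The alternative for pairs, normexp and quantile, was added after the data were seen and kept the count at 1.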
